A study of Gallus gallus with 18 samples.

Results

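Collagens are matrix proteins built from 3 chains wound into a triple helix, and each chain has a gene of its own. Fibrillar collagens form the banded fibrils of connective tissue, type IV collagens form the sheet of basement membranes, and the remaining members sit on fibrils, link cells to the membrane or form filaments. In the early head they are made mainly by mesenchyme and by epithelia, and they lie along the paths on which neural crest cells migrate and axons grow.

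The collagen genes were taken as the rows of the gene table whose symbol is COL, a number, A and a number. This gave 33 of 30108 genes, of which 5 are fibrillar, 7 belong to basement membranes and 21 are of other kinds. A filter on low counts kept 32 of them among 17724 genes, and COL10A1, with 2 to 16 counts per pool, was not tested. All 32 reached the filter's cutoff in pools of every stage, so none was kept through a single stage. Another 12 collagen symbols in the lists had no row of that name and were not analysed here. Among them were the fibrillar COL2A1, COL5A2, COL5A3, COL11A2, COL24A1 and COL27A1, and COL15A1 of basement membranes. The fibrillar class is therefore covered only in part.

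The samples were pooled trigeminal ganglia of wildtype chicken embryos, sequenced from poly(A)-enriched RNA. This cranial ganglion carries touch from the face, and its neurons come from placodes and neural crest. The labels of the 3 groups differ in Hamburger-Hamilton stage alone: HH13-14 is the youngest, HH15-16 the middle and HH17-18 the oldest. Each has 3 biological replicates, and no group carries a treatment or mutation. Each replicate is a pool of ganglia, run as 2 technical replicates on lanes 7 and 8, whose counts were summed. The labels do not say that pools came from separate days or clutches, so p-values measure the spread between these pools.

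The 9 pools held 53458986 to 68083147 counts. Values are CPM, the count of a gene as a share of its library per 1e6 counts, with library sizes scaled by the trimmed mean of M-values (TMM). Technical pairs differed far less than pools of a stage, with a chi-square per degree of freedom of 2.14 to 2.33 against 8.10 to 43.5. Neuron and neural crest markers were present in every pool, with TUBB3 at 688 to 1182 CPM and SOX10 at 69.6 to 237 CPM. Replicate 1 of HH15-16 stood apart. It was the lowest of the 9 pools for 16 of the 32 collagens, against 20.1% of all genes tested. Its summed level of head mesenchyme markers was 309 CPM, against 432 to 673 CPM in the other pools, and that of endothelium markers was 252 CPM, against 321 to 399 CPM. Its neural tube markers summed to 429 CPM, against 89.6 to 330 CPM elsewhere. The part of these differences in the collagen values was not tested. In bulk RNA, fewer cells of a type and less RNA per cell cannot be told apart.

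From HH13-14 to HH17-18, 5 collagen genes fell and 1 rose. Those that fell were COL9A1 and COL9A2, chains of the fibril-associated type IX collagen, COL4A5 and COL4A6, chains of type IV collagen, and COL18A1, a basement membrane collagen that carries heparan sulfate. The gene that rose was COL17A1, a transmembrane collagen of hemidesmosomes. These are 6 of 32 collagens, or 18.8%, at an adjusted p under 0.05 in edgeR's quasi-likelihood test with Benjamini-Hochberg adjustment over all genes, where 4.51% of all genes tested were past the threshold. By direction, 2.40% of all genes were called higher and 2.12% lower. At an unadjusted p under 0.05, 7 collagens were higher and 7 lower, against 11.8% and 9.83% of all genes. None of the 5 fibrillar collagens tested was past the threshold, against 3 of 7 basement membrane collagens and 3 of 20 others. These class differences were not tested. The median log2 fold change was 0.07 for fibrillar, -0.33 for basement membrane and 0.09 for other collagens, beside 0.02 for all genes. The mean over the basement membrane members was -0.15. Without replicate 1 of HH15-16, 7 collagens were called higher and 6 lower, in a fit that called 8.30% of all genes. That pool belongs to neither stage compared over the interval. Without any 1 pool of HH13-14 0 higher and 1 to 2 lower were left, in fits that called 0.539% to 0.658% of all genes.

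**Figure D1:**
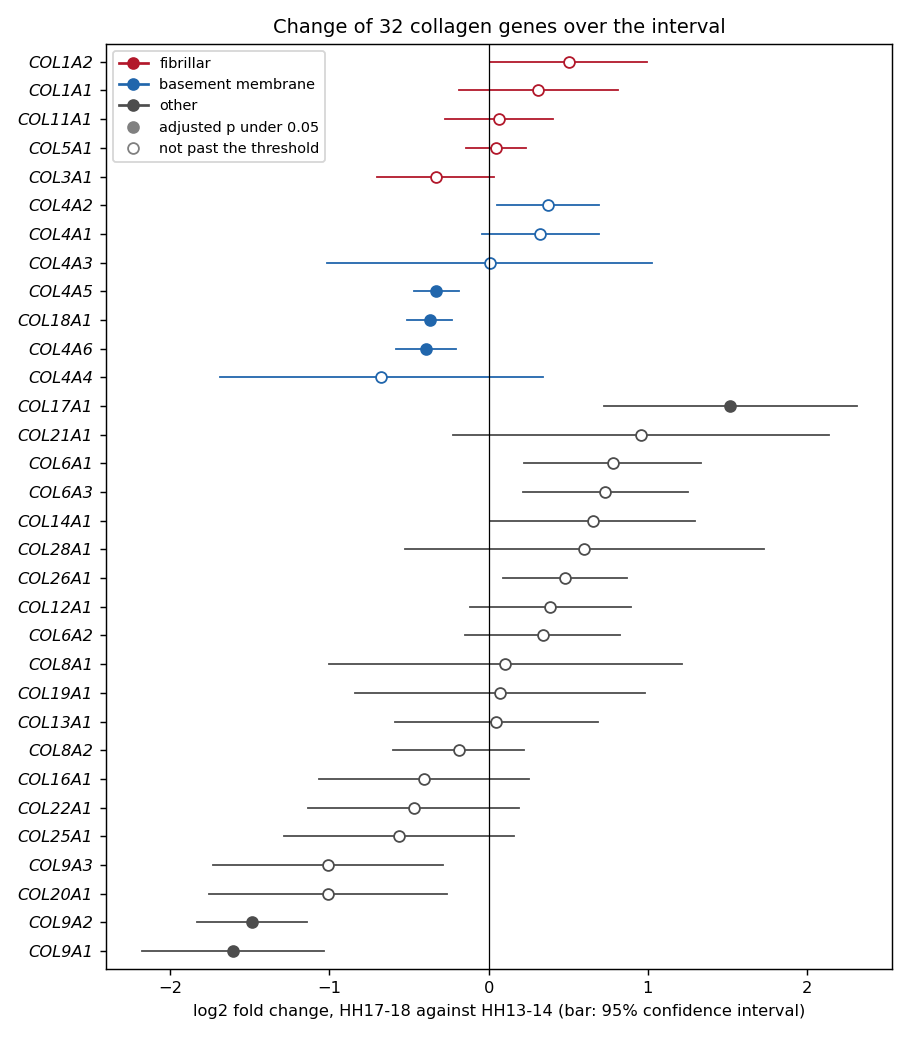
Log2 fold change of each of the 32 collagen genes tested from HH13-14 to HH17-18 (x axis), with its 95% confidence interval as a bar, grouped by class in color. Filled points are the 6 genes past the threshold, and the fibrillar members, from -0.33 to 0.50, are all open.

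Type IX collagen is a trimer of different chains that coats fibrils, best known from cartilage and, in the chick, from the stroma of the embryonic cornea. COL9A2 (ENSGALG00010017139, chr23:5234092-5249412 in GRCg7b) had 85.3, 75.9 and 106.5 CPM in the pools of HH13-14, then 50.2, 48.2 and 56.8 CPM at HH15-16 and 25.7, 32.9 and 37.0 CPM at HH17-18. The pools of the 3 stages did not overlap, and each stage lay wholly below the one before. Its mean went from 89.3 ± 15.7 to 31.9 ± 5.69 CPM (SD, n = 3), which is a log2 change of -1.49 with an SE of 0.16 (edgeR adjusted p 0.00246). It was past the threshold in each of the 19 alternatives as well.

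COL9A1 (ENSGALG00010001727, chr3:82510679-82576754) had 41.5, 41.0 and 42.9 CPM at HH13-14, then 15.6, 17.8 and 31.5 CPM at HH15-16 and 9.82, 15.9 and 15.5 CPM at HH17-18. All pools of HH17-18 were below those of HH13-14, while a pool of HH15-16 lay within the span of HH17-18. Over the interval this is a log2 change of -1.61 with an SE of 0.26 (edgeR adjusted p 0.0117). Without replicate 1 or replicate 3 of HH13-14 it missed the threshold, with an edgeR adjusted p of up to 0.0580 over the alternatives. The RefSeq span of COL9A1 shares 698 bases with that of COL19A1, and how reads there were assigned is not given.

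The third chain, COL9A3, had 70.0, 69.8 and 86.0 CPM at HH13-14, then 21.3, 40.0 and 65.9 CPM at HH15-16 and 27.5, 43.1 and 41.6 CPM at HH17-18. Its HH17-18 pools were also all below HH13-14, but its log2 fold change of -1.01 (SE 0.33) missed the threshold at an edgeR adjusted p of 0.112. Among the alternatives in which it passed were DESeq2, voom, the fit of the 2 outer stages and the fits without replicate 1 or 3 of HH15-16. Those settings called 4.78% to 9.84% of all genes, against 4.51% as reported. Replicate 1 had the lowest COL9A3 value of the 9 pools. The ratio of COL9A3 to COL9A2 counts was 0.807 to 0.919 at HH13-14, 0.425 to 1.16 at HH15-16 and 1.07 to 1.31 at HH17-18, with the outer stages apart. That of COL9A1 to COL9A2 overlapped between the outer stages, with 0.403 to 0.540 at HH13-14 and 0.382 to 0.483 at HH17-18. Neither ratio was tested.

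Neural crest and glia markers were examined in the same pools. Of 7 such markers tested, 1 fell and 0 rose from HH13-14 to HH17-18, with a median log2 fold change of -0.43, and none was at 0 in any pool. Their summed level was 470 to 585 CPM at HH13-14, 394 to 545 CPM at HH15-16 and 354 to 492 CPM at HH17-18. FOXD3, an early crest transcription factor, had 38.7, 41.4 and 51.2 CPM at HH13-14, then 14.5, 22.2 and 33.8 CPM at HH15-16 and 14.2, 26.6 and 24.1 CPM at HH17-18, and missed the threshold (edgeR adjusted p 0.0822). Not all markers of the list were lower: FABP7 had 124 to 141 CPM at HH13-14 and 104 to 176 CPM at HH17-18. ERBB3 had 28.7 to 41.0 CPM and then 26.2 to 43.8 CPM. At an unadjusted p under 0.05 in edgeR, 0 of the 7 were higher and 3 lower, against 11.8% and 9.83% of all genes. Of the cartilage and notochord markers, 1 of 6 rose and 0 fell, with a median log2 fold change of -0.33 and sums of 71.7 to 79.4 CPM at HH13-14 and 84.6 to 128 CPM at HH17-18. The gene that rose was HAPLN1, which links aggrecan to hyaluronan, at 17.2 ± 0.768 and then 39.0 ± 5.67 CPM (SD, n = 3). ACAN, MATN1 and CHRD, the first and second of which encode cartilage matrix proteins and the last a BMP antagonist of the notochord, had log2 fold changes of -0.58, -0.68 and -0.66 and missed the threshold (edgeR adjusted p 0.258, 0.372 and 0.145). SOX9, in the same list, went from 24.4 ± 1.72 to 46.3 ± 17.5 CPM (SD, n = 3) and also missed the threshold. At an unadjusted p under 0.05 in edgeR, 2 of the 6 were higher and 1 lower, against the same shares of all genes. The part of the crest, cartilage and notochord markers in the fall of COL9A1 and COL9A2 was not tested.

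**Figure D2:**
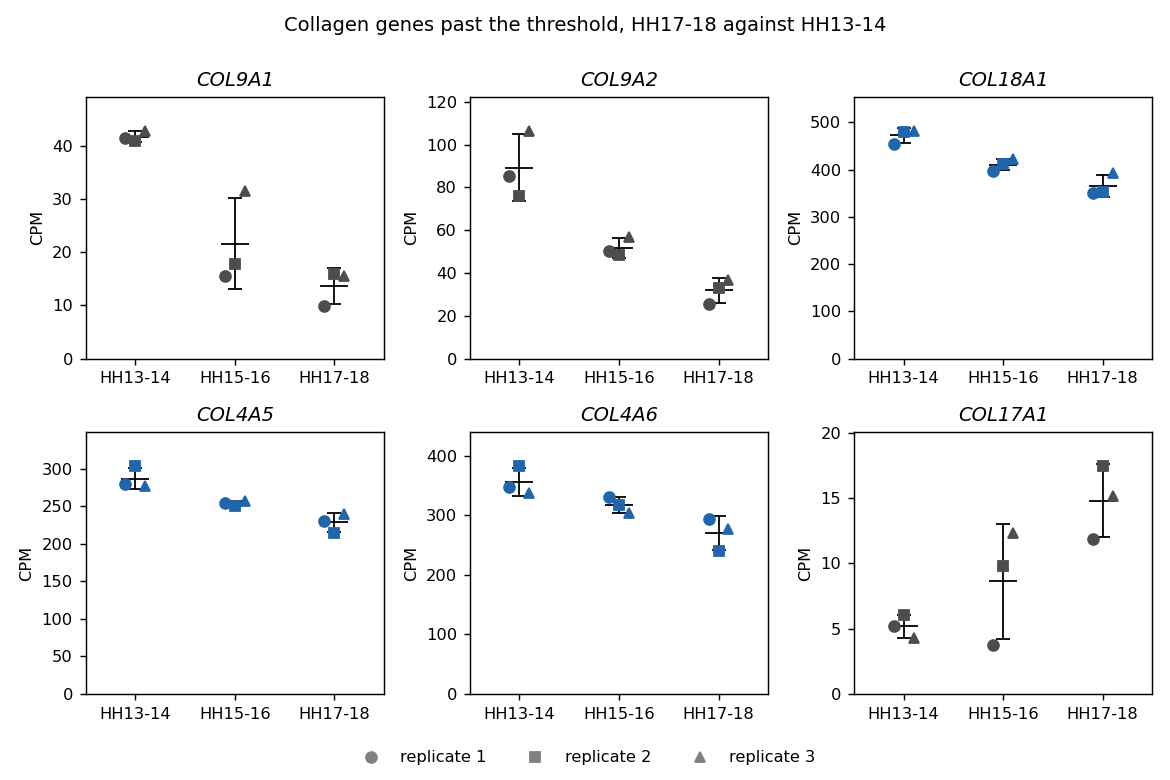
CPM (y axis) of the 6 collagen genes past the threshold in each pool of the 3 stages (x axis), with a symbol for each replicate number and a bar for the mean ± SD. COL9A2, COL18A1, COL4A5 and COL4A6 step down at both stages with no overlap, and COL17A1 rises from 4.29 to 6.02 CPM at HH13-14 to 11.8 to 17.5 CPM at HH17-18.

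The log2 fold changes of the basement membrane collagens differed in sign between chains, and that difference was not tested. Type IV chains assemble in set combinations, of which the pair encoded by COL4A1 and COL4A2 is found in nearly all basement membranes, and that encoded by COL4A5 and COL4A6 is known in mammals from epithelia and smooth muscle. COL4A5 and COL4A6 fell, while COL4A1 and COL4A2 had positive log2 fold changes that missed the threshold. COL4A5 (ENSGALG00010015632, chr4:13859833-13939361) had 280, 303 and 277 CPM at HH13-14, 255, 250 and 257 CPM at HH15-16, and 230, 215 and 240 CPM at HH17-18. COL4A6 (ENSGALG00010015733, chr4:13939774-14061222), which lies 412 bases from it, had 347, 383 and 338 CPM, then 332, 318 and 305 CPM, then 295, 240 and 277 CPM at the same stages. In each of these genes the 3 stages did not overlap.

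The falls of COL4A5 and COL4A6 were small, at -0.33 log2 units with an SE of 0.06 for the first (edgeR adjusted p 0.0253) and -0.40 with an SE of 0.09 for the second (edgeR adjusted p 0.0320). Neither passed without any 1 of the 3 pools of HH13-14, nor without replicate 2 or 3 of HH17-18. COL18A1 (ENSGALG00010014162, chr7:6685037-6716104), whose C-terminal fragment is endostatin, had 455, 480 and 482 CPM at HH13-14, 398, 411 and 421 CPM at HH15-16, and 351, 352 and 392 CPM at HH17-18. Its stages did not overlap either, and its log2 change was -0.37 with an SE of 0.06 (edgeR adjusted p 0.0156). The call was lost without any 1 pool of HH13-14 (edgeR adjusted p up to 0.0743 over the alternatives).

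COL4A1 (ENSGALG00010014128, chr1:138807413-138920608) had 210, 219 and 233 CPM at HH13-14, 160, 246 and 274 CPM at HH15-16, and 243, 306 and 280 CPM at HH17-18. COL4A2 (ENSGALG00010014324, chr1:138919708-139061817) had 157, 153 and 170.0 CPM, then 130, 195 and 199 CPM, then 197, 230.4 and 195 CPM. For each gene all pools of HH17-18 were above those of HH13-14, and replicate 1 of HH15-16 was the lowest of the 9 pools. Their log2 fold changes were 0.33 (95% confidence interval -0.04 to 0.69, edgeR adjusted p 0.290) and 0.37 (0.05 to 0.69, edgeR adjusted p 0.170). COL4A2 passed in the fit of the 2 stages compared, with voom and without replicate 1 of HH15-16. Those settings called 8.09% to 9.84% of all genes, against 4.51% as reported. The RefSeq spans of COL4A1 and COL4A2 share 901 bases, and how reads there were assigned is not given. COL4A3 and COL4A4, known from the mammalian kidney and with spans that share 19210 bases, stayed at 0.293 to 1.36 CPM, and their log2 fold changes were 0.01 (-1.01 to 1.03) and -0.68 (-1.69 to 0.34).

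The sum of the counts of COL4A5 and COL4A6, divided by those of COL4A1 and COL4A2, gave 1.71, 1.84 and 1.52 in the pools of HH13-14, 2.02, 1.29 and 1.19 at HH15-16, and 1.20, 0.847 and 1.09 at HH17-18. The ratio was lower in every pool of HH17-18 than in any of HH13-14, and at HH15-16 replicate 1 was above both spans. COL4A5 and COL4A6 were each separated downward between the outer stages, and COL4A1 and COL4A2 upward. The separation of the ratio follows from theirs, so it is no separate support. Within each pair the ratio moved less. COL4A2 over COL4A1 ran from 0.701 to 0.751 at HH13-14 and from 0.694 to 0.811 at HH17-18, and COL4A6 over COL4A5 from 1.22 to 1.26 and from 1.11 to 1.28. These ratios are of counts not divided by length, so they compare pools and not chains, and they were chosen after their genes' values were seen.

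**Figure D3:**
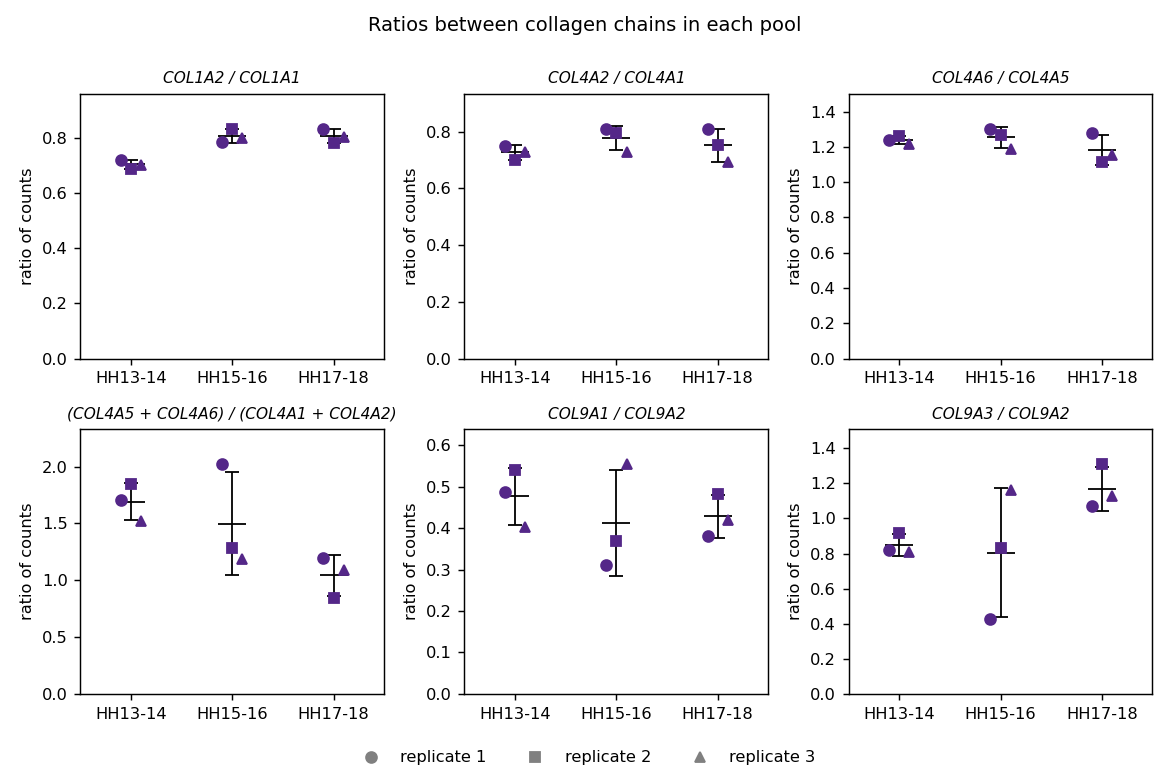
Ratios of counts between collagen chains (y axis) in each pool of the 3 stages (x axis), with a symbol for each replicate number and a bar for the mean ± SD. The ratio of COL4A5 and COL4A6 to COL4A1 and COL4A2 lies at 1.52 to 1.84 at HH13-14 and at 0.847 to 1.20 at HH17-18, and that of COL1A2 to COL1A1 is lowest at HH13-14.

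Other basement membrane components were tested beside the collagens. Of 7 genes tested, 2 fell and 0 rose over the interval, with a median log2 fold change of 0.18. At an unadjusted p under 0.05 in edgeR, 2 were higher and 2 lower, against 11.8% and 9.83% of all genes. DESeq2 called 0 higher and 2 lower, where it called 9.62% of all genes in either direction. AGRN, which encodes the heparan sulfate proteoglycan agrin, had 441, 484 and 474 CPM at HH13-14 and 282, 302 and 336 CPM at HH17-18, and the log2 change was -0.61 with an SE of 0.08 (edgeR adjusted p 0.00587). NID2, which encodes a nidogen that links laminin to type IV collagen, had 392, 408 and 415 CPM and then 249, 333 and 274 CPM, and the log2 change was -0.51 with an SE of 0.11 (edgeR adjusted p 0.0285). NID1, the other nidogen gene of the list, had 184, 211.1 and 199.2 CPM and then 249.6, 229.4 and 216.5 CPM. Its HH17-18 pools were all above HH13-14, and it missed the threshold. AGRN passed in all 19 alternatives, and NID2 was lost without any 1 pool of HH13-14 (edgeR adjusted p up to 0.108 over its alternatives). HSPG2, which encodes perlecan, and SPARC, a collagen-binding matrix protein, had log2 fold changes of -0.26 and 0.22 and missed the threshold (edgeR adjusted p 0.349 and 0.357).

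COL17A1 (ENSGALG00010021287, chr6:24919985-24959891) encodes a membrane protein that fastens basal epithelial cells to their basement membrane. It had 5.22, 6.02 and 4.29 CPM at HH13-14, 3.75, 9.77 and 12.3 CPM at HH15-16, and 11.8, 17.5 and 15.2 CPM at HH17-18. All pools of HH17-18 were above those of HH13-14, and replicate 1 of HH15-16 was the lowest of all. This is a log2 change of 1.52 with an SE of 0.36 (edgeR adjusted p 0.0417). It missed the threshold in 8 of 19 alternatives, which were the threshold of 0.01 and the fits without any 1 pool of HH13-14 or HH17-18 or without replicate 2 of HH15-16, with an edgeR adjusted p of up to 0.152.

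Surface ectoderm markers were examined beside COL17A1. Of 5 tested, 2 rose and 1 fell, each of them a call lost without any 1 pool of HH13-14 or HH17-18, and KRT5 was at 0 in at least 1 pool and was not tested. TP63, the transcription factor of stratified epithelia, went from 8.02 ± 0.443 to 18.3 ± 3.80 CPM (SD, n = 3; log2 fold change 1.19, edgeR adjusted p 0.0479). GRHL3, another epidermal transcription factor, went from 8.90 ± 0.421 to 19.1 ± 2.26 CPM (log2 fold change 1.10, edgeR adjusted p 0.0266). EPCAM, a cell adhesion gene of simple epithelia, fell from 100.5 ± 8.61 to 74.5 ± 5.69 CPM (log2 fold change -0.43, edgeR adjusted p 0.0370). The keratin genes tested, KRT14 and KRT18, missed the threshold, with outer stages that overlapped. KRT14 had 11.3, 10.9 and 19.8 CPM at HH13-14 and 9.71, 11.1 and 11.2 CPM at HH17-18. KRT18 had 21.4, 19.7 and 16.2 CPM and then 21.3, 33.8 and 15.1 CPM. The list summed to 140 to 164 CPM at HH13-14, 120 to 185 CPM at HH15-16 and 128 to 169 CPM at HH17-18, and its part in the rise of COL17A1 was not tested. The other transmembrane collagens were COL25A1, known in the mouse for its role in the innervation of muscle, and COL13A1, a component of the neuromuscular junction. Their log2 fold changes were -0.57 (95% confidence interval -1.29 to 0.16) and 0.05 (-0.59 to 0.68), and neither passed the threshold (edgeR adjusted p 0.350 and 0.942).

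None of the 5 fibrillar collagens tested passed the threshold in edgeR at any comparison. Over the interval, 1 was higher and 0 lower at an unadjusted p under 0.05, against 11.8% and 9.83% of all genes. DESeq2 called none of them either, where it called 9.62% of all genes over the interval. Type I collagen is a trimer with chains from COL1A1 and COL1A2. COL1A1 had 981, 1101 and 1047 CPM at HH13-14, 638, 1058 and 1271 CPM at HH15-16, and 1004, 1635 and 1242 CPM at HH17-18. Its pools overlapped between all stages, and its log2 fold change over the interval was 0.31 (95% confidence interval -0.19 to 0.81, edgeR adjusted p 0.468). COL1A2 had 708, 758 and 735 CPM, then 502, 883 and 1016 CPM, then 836, 1280 and 999.5 CPM, so that its HH17-18 pools were all above HH13-14, with a log2 fold change of 0.50 (0.01 to 0.99, edgeR adjusted p 0.224). Replicate 1 of HH15-16, a pool of neither stage compared over the interval, was the lowest for both genes. Without it COL1A2 passed the threshold (edgeR adjusted p 0.0443), in a fit that called 8.30% of all genes against 4.51% as reported. The estimate for COL1A2 was no larger in that fit, at 0.488 log2 units.

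COL1A2 over COL1A1 was 0.722, 0.688 and 0.702 in the pools of HH13-14, 0.787, 0.834 and 0.800 at HH15-16, and 0.832, 0.783 and 0.805 at HH17-18. Every pool of the later stages was above every pool of HH13-14, including replicate 1 of HH15-16, in which the 2 genes were both low. The ratio was found by looking at the values and was not tested.

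COL3A1, whose product joins type I in mixed fibrils, had a log2 fold change of the opposite sign. It had 407, 479 and 320 CPM at HH13-14, 348, 441 and 392 CPM at HH15-16, and 374, 330.3 and 252 CPM at HH17-18. The stages overlapped, and the log2 fold change was -0.33 (95% confidence interval -0.70 to 0.03, edgeR adjusted p 0.278). The other fibrillar members, COL5A1 and COL11A1, which encode minor chains that set the width of fibrils, had the narrowest intervals. Their log2 fold changes were 0.04 (-0.15 to 0.23) and 0.07 (-0.27 to 0.41).

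Summed over the 5 fibrillar genes, the level was 2368 to 2632 CPM at HH13-14, 1721 to 2960 CPM at HH15-16 and 2479 to 3559 CPM at HH17-18. The head mesenchyme markers summed to 432 to 477 CPM, 309 to 600 CPM and 438 to 673 CPM. Both sums were lowest in replicate 1 of HH15-16 and highest in replicate 2 of HH17-18, a pool of the stages compared over the interval. Of the 7 markers tested, 1 fell and 0 rose, with a median log2 fold change of 0.25. The one that fell, TCF21, had 3.35 ± 0.222 and then 0.938 ± 0.364 CPM (SD, n = 3), and its call was lost in 9 of 19 alternatives, among them the fits without any 1 pool of HH13-14. The part of mesenchyme in the fibrillar levels was not tested. Collagen genes of all classes took 0.456% to 0.503% of the counts of a pool at HH13-14, 0.370% to 0.558% at HH15-16 and 0.475% to 0.641% at HH17-18.

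**Figure D4:**
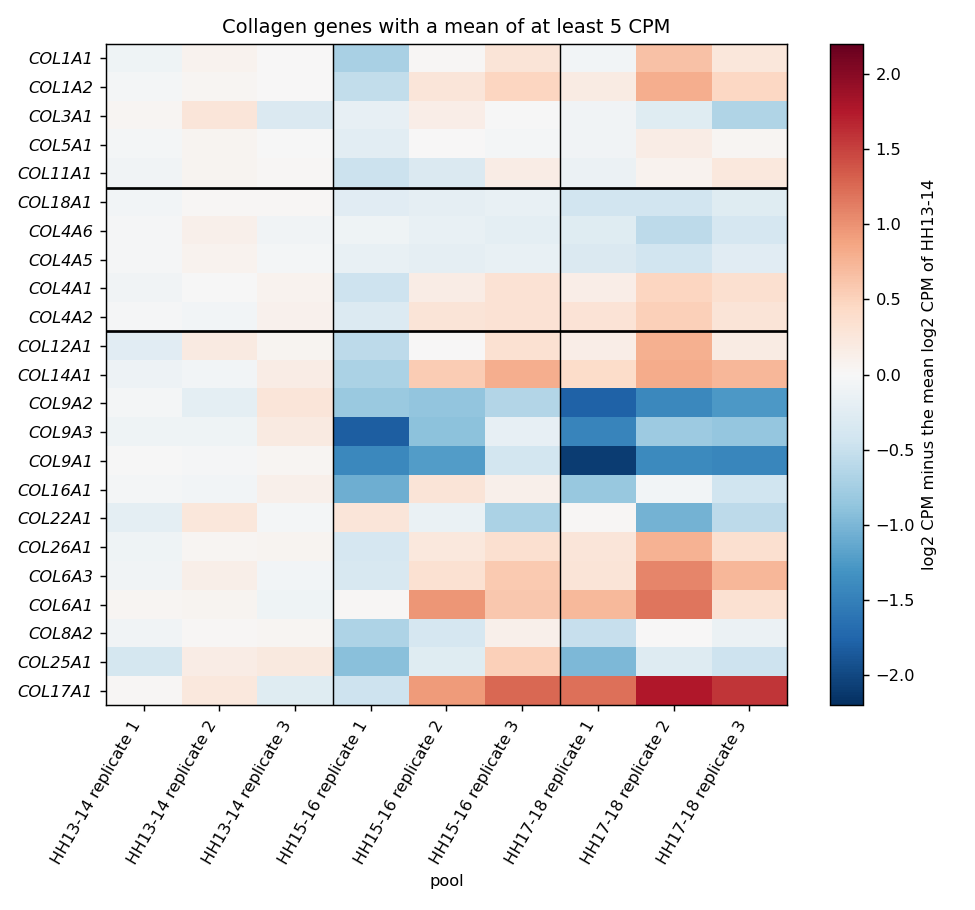
Log2 CPM minus the mean log2 CPM of the HH13-14 pools, for the 23 collagen genes with a mean of at least 5 CPM (rows, with lines between fibrillar, basement membrane and other collagens) in the 9 pools (columns). Values run from -2.09 to 1.77, and the column of HH15-16 replicate 1 is blue for most fibrillar genes and for COL4A1, COL14A1 and COL9A3.

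Among the remaining collagens, several had positive log2 fold changes over the interval without passing the threshold. Type VI collagen forms beaded filaments around cells and nerves. COL6A3 had 37.3, 42.9 and 37.5 CPM at HH13-14 and 47.7, 82.8 and 65.1 CPM at HH17-18, with no overlap, and its log2 change was 0.73 with an SE of 0.23 (edgeR adjusted p 0.107). COL6A1 had 10.1, 10.2 and 9.21 CPM and then 16.1, 22.2 and 12.5 CPM, and the log2 change was 0.78 with an SE of 0.25 (edgeR adjusted p 0.110). For COL6A2, with 3.10 to 4.78 CPM at these stages, it was 0.34 (edgeR adjusted p 0.414). Among the alternatives in which COL6A3 passed were DESeq2, voom, the fit of the 2 stages and the fit without replicate 1 of HH15-16, and COL6A1 passed in these except voom. Those settings called 8.09% to 9.84% of all genes, against 4.51% as reported.

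COL14A1 and COL12A1 encode collagens that sit on the surface of type I fibrils. COL14A1 had 95.7, 98.8 and 115 CPM at HH13-14, 63.6, 152 and 179 CPM at HH15-16, and 136, 181 and 170.3 CPM at HH17-18. Its outer stages did not overlap, and its log2 fold change was 0.65 (95% confidence interval 0.01 to 1.30, edgeR adjusted p 0.226). COL12A1 had 200 to 272 CPM and then 264 to 411 CPM, with a log2 fold change of 0.39 (-0.12 to 0.89, edgeR adjusted p 0.362). COL26A1, a collagen with an EMI domain, had 237 to 264 CPM and then 306 to 433 CPM with no overlap, and its log2 fold change was 0.48 (0.09 to 0.87, edgeR adjusted p 0.149). COL14A1 and COL26A1 passed in the fit of the 2 stages and without replicate 1 of HH15-16. Those fits called 8.09% and 8.30% of all genes, against 4.51% as reported. Over the fits without 1 pool, the log2 fold changes were 0.567 to 0.766 for COL14A1, 0.148 to 0.498 for COL12A1 and 0.304 to 0.573 for COL26A1.

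COL8A1 and COL8A2 encode short-chain collagens that form hexagonal nets, as under the corneal endothelium. COL8A2 had 53.8 to 58.4 CPM at HH13-14 and 40.0 to 57.3 CPM at HH17-18 (log2 fold change -0.19, edgeR adjusted p 0.608). COL8A1 was low and uneven, with 2.16, 2.45 and 5.03 CPM at HH13-14, 1.31, 1.17 and 1.73 CPM at HH15-16, and 1.33, 6.23 and 2.82 CPM at HH17-18. Its log2 fold change of 0.10 (95% confidence interval -1.01 to 1.21) turned negative without replicate 1 or 2 of HH13-14 and was -0.63 without replicate 2 of HH17-18. The other members were FACIT collagens, which bind to fibrils, and COL28A1. COL16A1 and COL22A1 had 13.6 to 34.6 CPM and 3.91 to 9.64 CPM over the 9 pools, with log2 fold changes of -0.41 and -0.47. COL20A1, first described in the chick, was below 3.05 CPM, with HH17-18 wholly below HH13-14 (log2 fold change -1.01, edgeR adjusted p 0.120). COL19A1, COL21A1 and COL28A1 stayed below 4.10 CPM, and none of them passed the threshold.

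Counted without a model, 9 of the 32 collagens had all pools of HH17-18 above all pools of HH13-14, and 7 had them all below. Of all genes tested, 16.0% were separated upward and 15.4% downward. By step, 0 collagens were separated upward at the earlier and 0 at the later step, against 8.03% and 5.94% of all genes, and 8 and 4 were separated downward, against 8.60% and 5.55%. COL9A2, COL4A5, COL4A6 and COL18A1 were lower at each stage than in every pool of the stage before, which is 12.5% of the collagens against 0.942% of all genes tested. No collagen was ordered upward in this way, against 0.750% of all genes. These 4 genes were also among the calls above, so the count is no separate support for them.

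By single step, no collagen passed the threshold in edgeR. From HH13-14 to HH15-16, 1 collagen was higher and 6 lower at an unadjusted p under 0.05, where 5.29% and 4.84% of all genes were, and none at the adjusted threshold, which 0% of all genes passed. The log2 fold changes of COL9A2, COL9A1 and COL9A3 at this step were -0.79, -0.95 and -0.83 (edgeR adjusted p 0.405, 0.417 and 0.460 in that order). DESeq2 called COL9A1 and COL9A2 lower and 0 collagens higher, in a test that called 0.605% of all genes in either direction. From HH15-16 to HH17-18, 2 collagens were higher and 5 lower at an unadjusted p under 0.05 in edgeR, where 5.10% and 4.21% of all genes were, and 0.0790% of all genes passed the adjusted threshold (0.0169% higher and 0.0621% lower). COL9A2 had a further difference of -0.70 log2 units (edgeR adjusted p 0.172, DESeq2 adjusted p 0.00556), with HH17-18 wholly below HH15-16. DESeq2 called 1.72% of all genes at this step in either direction. The difference of COL17A1 was 0.78 (edgeR adjusted p 0.534).

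The test of the later step minus the earlier one gave 0 collagens in edgeR and 0 in DESeq2, where 0.00564% of all genes passed the adjusted threshold in edgeR. At an unadjusted p under 0.05, 1 collagen had a positive and 0 a negative difference, against 1.66% and 2.70% of all genes. The gene with the unadjusted call was COL8A1, with a difference of 2.49 log2 units (edgeR adjusted p 0.932). In the test of any effect of stage, COL9A2, COL9A1 and COL18A1 passed, with edgeR adjusted p-values of 0.00716, 0.0342 and 0.0463, where 1.30% of all genes did. Only COL9A2 passed this test when any 1 pool of HH13-14 or HH17-18, or replicate 2 of HH15-16, was left out. Those fits called 0.126% to 0.927% of all genes.

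Genes that make, process and crosslink collagen were taken from 4 lists. Of 35 tested, 3 rose and 2 fell over the interval, where 2.40% of all genes were called higher and 2.12% lower. At an unadjusted p under 0.05 in edgeR, these shares of all genes were 11.8% and 9.83%. Each of the 5 calls in these lists was lost without replicate 1 or 3 of HH13-14. Those other than P3H2 were lost without replicate 2 as well, with edgeR adjusted p-values of up to 0.161. The enzymes of chain modification gave 2 of 14 higher and 0 lower, with a median log2 fold change of -0.04. P4HA3, a catalytic subunit of prolyl 4-hydroxylase, had 8.22, 9.50 and 7.58 CPM at HH13-14 and 14.2, 22.7 and 15.5 CPM at HH17-18 (log2 fold change 1.05, SE 0.24, edgeR adjusted p 0.0378). P3H2, a prolyl 3-hydroxylase known to act on type IV collagen, had 12.0, 12.9 and 8.43 CPM and then 20.9, 20.3 and 22.4 CPM (log2 fold change 0.93, SE 0.16, edgeR adjusted p 0.0170). The members P4HB, a subunit shared by the prolyl 4-hydroxylases, and PPIB, a prolyl isomerase, had log2 fold changes of -0.15 and -0.02 (edgeR adjusted p 0.258 and 0.920).

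Of 9 chaperone and export genes, 0 rose and 0 fell in edgeR (1 and 1 at an unadjusted p under 0.05; 1 and 0 with DESeq2), and their median log2 fold change was -0.02. HSPA5 and PDIA3, general chaperones of the endoplasmic reticulum, had log2 fold changes of -0.41 and -0.03 (edgeR adjusted p 0.120 and 0.834). SERPINH1, the chaperone specific to procollagen, had 315, 273 and 333 CPM at HH13-14, 119, 414 and 398 CPM at HH15-16, and 332, 399 and 229 CPM at HH17-18. The low value was again that of HH15-16 replicate 1.

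Of 6 genes of procollagen cleavage, 2 fell. TLL1, a proteinase that removes the C-propeptide, went from 28.3 ± 0.978 to 18.9 ± 2.43 CPM (SD, n = 3; log2 fold change -0.58, edgeR adjusted p 0.0243). PCOLCE2, which enhances that cleavage, went from 5.53 ± 0.916 to 2.98 ± 0.0787 CPM (log2 fold change -0.89, edgeR adjusted p 0.0334). ADAMTS14 and ADAMTS3, which remove N-propeptides, had log2 fold changes of 0.35 and 0.11 (edgeR adjusted p 0.329 and 0.845). Of 6 crosslinking genes, 1 rose and 0 fell, with a median log2 fold change of -0.27. At an unadjusted p under 0.05 in edgeR, 1 was higher and 3 lower. The gene past the threshold was LOXL2, which oxidizes lysines of type IV collagen. It rose from 30.4 ± 2.72 to 52.0 ± 12.4 CPM (log2 fold change 0.77, edgeR adjusted p 0.0449). LOXL1 and PXDN, the peroxidase that joins type IV collagen trimers, had log2 fold changes of -0.42 and -0.15 (edgeR adjusted p 0.138 and 0.429).

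**Figure D5:**
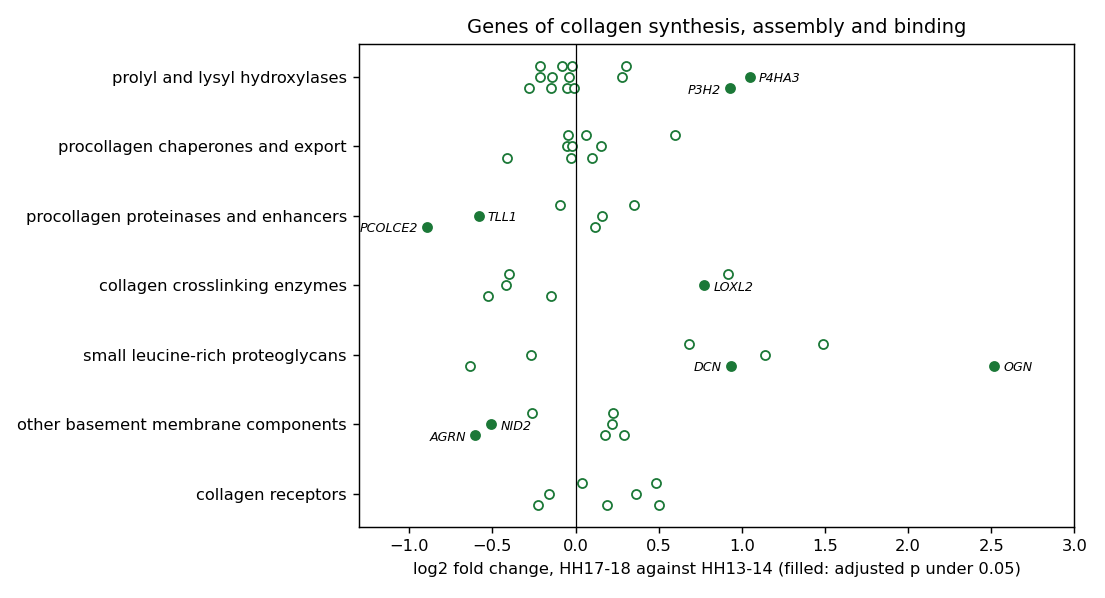
Log2 fold change from HH13-14 to HH17-18 (x axis) of the 56 genes tested from 7 lists of collagen synthesis, assembly and binding (rows), with points spread vertically for legibility. Filled, named points are the 5 genes that rose and the 4 that fell, and the longest shift is that of OGN at 2.52.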

How the data were processed

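The authors deposited whole-number counts per gene for 18 libraries. Per the submitters' processing notes, Trim Galore, HISAT2, featureCounts and the build GRCg7b were used, and versions, strand setting and the unit counted are not given in the sources used here. Reads in overlapping genes are therefore uncertain. Coordinates are those of RefSeq genes of the same symbol in GRCg7b (33 of 33 matched). Each of the 18 columns carries the name of 1 sample, and 0 columns were left unused.

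Technical replicates were summed to 9 pools. With edgeR 4.0.16 in R 4.3.3, low genes were removed by filterByExpr, libraries were scaled by TMM, and a model was fitted without covariates by glmQLFit and glmQLFTest over all 9 pools, two-sided, with an adjusted p threshold of 0.05 over all genes. The SE is the one implied by the test statistic, and confidence intervals are at 95%. Alternatives were DESeq2 1.42.0 size factors and test, other filters (none, or at least 10 counts in every pool), each lane, the replicate number as a block, a threshold of 0.01, fits of the stages compared, limma 3.58.1 voom with sample weights, and leaving out each of the 9 pools.

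Members and lists were chosen with earlier results of these data known. Named genes were collagens past the threshold and the 3 of highest mean CPM in each class. Of the 7 lists beside the collagens, they were genes past the threshold and the 2 of highest mean CPM. Of the cell type marker lists, some genes past the threshold are named and others are given by counts alone. KERA, PRELP, FMOD, NID1, SERPINH1, FOXD3, FABP7, ERBB3, SOX9, ACAN, MATN1, CHRD, TUBB3, SOX10, KRT5, KRT14, KRT18, BGN, OMD, RGS5, MYOG, C1QA and further collagens were named after their values were seen. A marker gene past the threshold is not reported here.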

Additional observations from a re-analysis of the deposited data

How the results depend on the processing

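Under the alternatives, 118 counts of collagen genes were within 1.5 times the reported count and 32 were outside that range. Of the log2 fold changes of named collagens, 539 had the same direction and side of the threshold, 27 lost the call, 16 newly passed and 7 reversed. For named genes of the other lists these were 537, 149, 13 and 3. Of the class medians, 4 moved by more than the spread between pools and 167 by less. None of these shifts had its cause tested.

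The stage effect (3 collagens) gave 7 with DESeq2 and 5 with voom, in fits that called 7.60% and 2.73% of all genes against 1.30% as reported. At an adjusted p under 0.01 it gave 1. Without 1 pool it gave 1 to 6, in fits that called 0.126% to 3.34% of all genes. Over the interval, the genes higher (1) were 3 with DESeq2, 3 with voom, 2 with the replicate block, 6 in the fit of the 2 stages, 0 at 0.01 and 0 to 7 without 1 pool. The share of all genes called over the interval, 4.51% as reported, was 9.62% with DESeq2, 9.84% with voom, 4.94% with the block and 8.09% in the fit of the 2 stages. Without 1 pool it was 0.539% to 8.30%. The collagens lower (5) were 1 at 0.01 and 1 to 6 without 1 pool. DESeq2 gave 2 lower at the earlier step and 1 at the later step, against 0 and 0. Of all genes, it called 0.605% and 1.72% at these steps, against 0% and 0.0790% in edgeR. The basement membrane median over the interval, -0.33, was -0.153 as a mean. At the earlier step the median of basement membrane collagens, -0.10, was -0.191 with voom and -0.189 to -0.089 without 1 pool, and that of other collagens, -0.12, was -0.257 to 0.15 without 1 pool.

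The reversed values were those of COL13A1, reported as 0.05, with -0.093 on lane 7, -0.059 with voom and -0.244 to 0.225 without 1 pool, and those of COL8A1, reported as 0.10, with -0.057 with voom and -0.632 to 0.583 without 1 pool. Without 1 pool, ADAMTS3 ranged from -0.13 to 0.319, PPIB from -0.098 to 0.022 and ITGB1 from 0 to 0.066. In the replicate block, COL6A3 and COL9A3 newly passed, and no other count of collagen calls changed. Pools of the same number deviated from their stage means with correlations of -0.063 to 0.303 over 9 pairs, against -0.399 to 0.322 over 18 pairs of different numbers, so the numbers were not taken to pair the pools. COL4A3, with 19 to 64 counts per pool, had an interval of -1.01 to 1.03, and COL8A1, with 77 to 341, one of -1.01 to 1.21.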

Other observations

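Small leucine-rich proteoglycans bind to collagen fibrils and limit their width. Of 7 tested over the interval, 2 rose and 0 fell, with a median log2 fold change of 0.93, beside 0.02 for all genes. DCN, which encodes decorin, had 192, 229 and 209 CPM at HH13-14, 180, 276 and 358 CPM at HH15-16, and 356, 482 and 364 CPM at HH17-18 (log2 fold change 0.93, SE 0.21, edgeR adjusted p 0.0360). OGN, which encodes osteoglycin, went from 1.12 ± 0.560 to 6.42 ± 2.88 CPM (SD, n = 3; log2 fold change 2.52, edgeR adjusted p 0.0201). DCN lost its call without any 1 pool of HH13-14 and OGN without replicate 1 or 2 of that stage (edgeR adjusted p up to 0.146). LUM and KERA, for lumican and keratocan, had log2 fold changes of 0.68 and 1.49 and missed the threshold (edgeR adjusted p 0.0602 and 0.0565). LUM passed in 7 of 19 alternatives, among them DESeq2, voom and the fit of the 2 stages, which called 9.62%, 9.84% and 8.09% of all genes. PRELP and FMOD, in the same list, had lower means at HH17-18 and missed the threshold. PRELP had 101 ± 10.4 and then 84.2 ± 16.6 CPM, and FMOD 0.999 ± 0.466 and then 0.644 ± 0.187 CPM (SD, n = 3). BGN and OMD were at 0 in at least 1 pool and were not tested.

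Of 7 collagen receptor genes tested, 0 rose and 0 fell in edgeR, with 1 higher and 0 lower at an unadjusted p under 0.05 and 1 higher with DESeq2. Of all genes, 11.8% were higher and 9.83% lower at that unadjusted p, and DESeq2 called 9.62% in either direction. ITGB1, the shared beta subunit of collagen-binding integrins, and MRC2, a receptor that takes up collagen, had log2 fold changes of 0.04 and 0.19 (edgeR adjusted p 0.856 and 0.422). Over all 7 lists beside the collagens, 16.1% of 56 genes were past the threshold, where 4.51% of all genes were.

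Other marker lists gave these counts over the interval. Neuron markers had 4 of 8 higher and 0 lower, macrophage markers 4 of 6 higher and 0 lower, pericyte markers 1 of 4 higher and 0 lower, and endothelium, neural tube and skeletal muscle markers 0 in either direction of 8, 6 and 5 in edgeR. The macrophage and pericyte calls were each lost without any 1 pool of HH13-14, and the 4 neuron calls without replicate 1 or 3 of that stage. At an unadjusted p under 0.05 the endothelium, neural tube and skeletal muscle lists gave 1 higher and 1 lower, 1 higher and 1 lower, and 0, and with DESeq2 1 lower, 1 lower and 0. RGS5 and MYOG were at 0 in at least 1 pool and were not tested, and C1QA was at 0 in 1 pool and was tested.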
